A study of Mus musculus with 9 samples.

Results

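Stress granules are cytoplasmic assemblies of untranslated mRNA and RNA-binding proteins that form when translation initiation stalls, most often after phosphorylation of eIF2α. G3BP1 and G3BP2 are the scaffold proteins that start their assembly, CAPRIN1 and USP10 bind the scaffold and favour or oppose it, TIA1 and TIAL1 bind the stalled mRNAs, the cytoplasmic poly(A)-binding proteins PABPC1 and PABPC4 arrive with the poly(A) tails, and ATXN2 and YBX1 are further RNA-binding components. The mRNAs of these 10 proteins, G3bp1, G3bp2, Caprin1, Usp10, Tia1, Tial1, Pabpc1, Pabpc4, Atxn2 and Ybx1, were taken by gene name from the 35275 genes of the deposited table. All 10 were found, each on 1 row, and all 10 were among the 13082 genes with enough reads to be tested.

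The RNA came from wild type C57Bl/6 mouse embryonic fibroblasts (MEFs), a cultured connective tissue cell used widely for stress signalling. Cells were kept in iso-osmolar medium or were exposed for 3 h to the same medium with added sucrose, a solute that cells do not take up readily and that draws water out of them: 200 mM sucrose gave 500 mOsm, the low-intensity stress, and 300 mM gave 600 mOsm, the high-intensity stress. All groups shared genotype, strain, medium and serum, and each was represented by 3 poly(A)-selected RNA libraries. The comparison addressed which mRNAs change with the intensity of hyperosmotic stress. The sources used here do not say whether the 3 libraries of a group came from separate cultures, so p-values measure only the spread between libraries, which may be technical.

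The libraries held 21716042 to 26740832 counted reads, and the 10 mRNAs were covered by 569 to 63928 reads in any 1 library. Fibroblast marker genes, led by vimentin and type I collagen, summed to 4438 to 4584 FPKM in iso-osmolar, 4323 to 4499 at 500 mOsm and 4860 to 4962 at 600 mOsm libraries (FPKM, fragments per kilobase of transcript, scaled to the size of the library). The sum was carried by Col1a1, Col1a2, Vim and Fn1. The less abundant Col3a1 was at 7.86 to 9.08 FPKM in iso-osmolar, 3.13 to 3.90 at 500 mOsm and 5.23 to 5.69 at 600 mOsm libraries, and Pdgfra at 5.65 to 5.85, 3.34 to 3.73 and 3.28 to 4.10. Pdgfrb rose in the same order of groups, at 48.5 to 50.2, 53.6 to 56.5 and 58.6 to 59.9 FPKM. Thy1 overlapped between groups, at 20.9 to 22.7, 20.3 to 24.6 and 21.6 to 25.2. Of 10 markers of other cell types 9 were on the table. They summed to 1.11 to 1.20 FPKM in iso-osmolar, 5.94 to 6.64 at 500 mOsm and 1.70 to 2.02 at 600 mOsm libraries. Pecam1 (endothelial), Tubb3 (neuronal) and Cdh1 (epithelial) were highest at 500 mOsm. So were Krt8 (epithelial), at 12 to 24 reads there, and Ptprc (immune), at 3 to 7 reads. Krt14 (epithelial) was at 0 to 5 reads in every library. Cdh5, also endothelial, stayed at 11 to 19 reads in every library, and Epcam (epithelial) and Pou5f1 (stem cell) at 0 to 2. Mitochondrially encoded genes took 0.537% to 0.632% of iso-osmolar, 0.394% to 0.492% of 500 mOsm and 0.320% to 0.403% of 600 mOsm reads. The part of these shifts in the results that follow was not tested. In RNA from whole cultures, fewer cells of a kind and less RNA per cell cannot be told apart, and every level is a share of the reads of its library.

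The paralogous members resemble each other in protein but could be told apart by reads of 150 bases. In the coding sequence of the longest coding transcript (GENCODE release M21, build GRCm38, the mm10 build named for these files), the longest identical run within each related pair is shown in capitals with 6 flanking bases on each side, where present. The run between G3bp1 and G3bp2 opens both coding sequences at the start codon and is 17 bases long.
G3bp1: ATGGTTATGGAGAAGCCtagtcc
G3bp2: ATGGTTATGGAGAAGCCcagtcc
Tia1: gatcatTTCCATGTGTTTGTTGGtgacct
Tial1: aatcacTTCCATGTGTTTGTTGGggattt
Pabpc1: cgccccCAGCTACCCCATGGCCTCtctgta
Pabpc4: agccagCAGCTACCCCATGGCCTCcttata
The run between Tia1 and Tial1 was also 17 bases long and that between Pabpc1 and Pabpc4 18 bases. Close matches in other annotated genes (at least 100 aligned bases at 95% identity or more) took few reads. Their summed counts were 0.181% of the member's own for G3bp1, 0.109% for Pabpc1, 0.0775% for Ybx1 and 0.0995% for G3bp2. For Pabpc4, with 9 such matches, 8 of them on the table, the share was 1.64%. The G3bp2 match was Gm26582, a non-coding gene that overlaps G3bp2 on the other strand by 3815 bases. The Tia1 match, Gm44790, overlaps Tia1 on the same strand and was not on the table. Reads that fit a member and a match equally may have been dropped by the counting. These values therefore cannot show that member counts were unaffected.

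The 10 mRNAs spanned levels from among the most abundant mRNAs to the middle of the tested genes, and their order was the same in all 3 groups. Pabpc1 was highest, with 829 ± 32.7 FPKM (SD, n = 3) in iso-osmolar libraries, followed by Ybx1 at 623 ± 24, Pabpc4 at 180.1 ± 4.78, G3bp1 at 97.4 ± 1.96, Caprin1 at 49.4 ± 5.21, Usp10 at 32.9 ± 1.02, Atxn2 at 18.2 ± 0.544, Tial1 at 10.5 ± 0.0305, G3bp2 at 9.66 ± 0.695 and Tia1 at 6.27 ± 0.64. No neighbours in that order had overlapping libraries in iso-osmolar medium or at 500 mOsm. At 600 mOsm the first 2 met: Pabpc1 was at 660 ± 27.8 FPKM and Ybx1 at 657 ± 15.1, and their libraries overlapped. Over all libraries, Pabpc1 stood at the 99.4th percentile of tested genes by mean FPKM and Tia1 at the 50.4th. Levels between genes depend on the length the authors divided by, which for Pabpc1 (2916 bases) is that of a transcript annotated with a retained intron and for Pabpc4 (3166 bases) that of a transcript annotated for nonsense-mediated decay. Differences between groups are not touched by it.

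**Figure D1:**
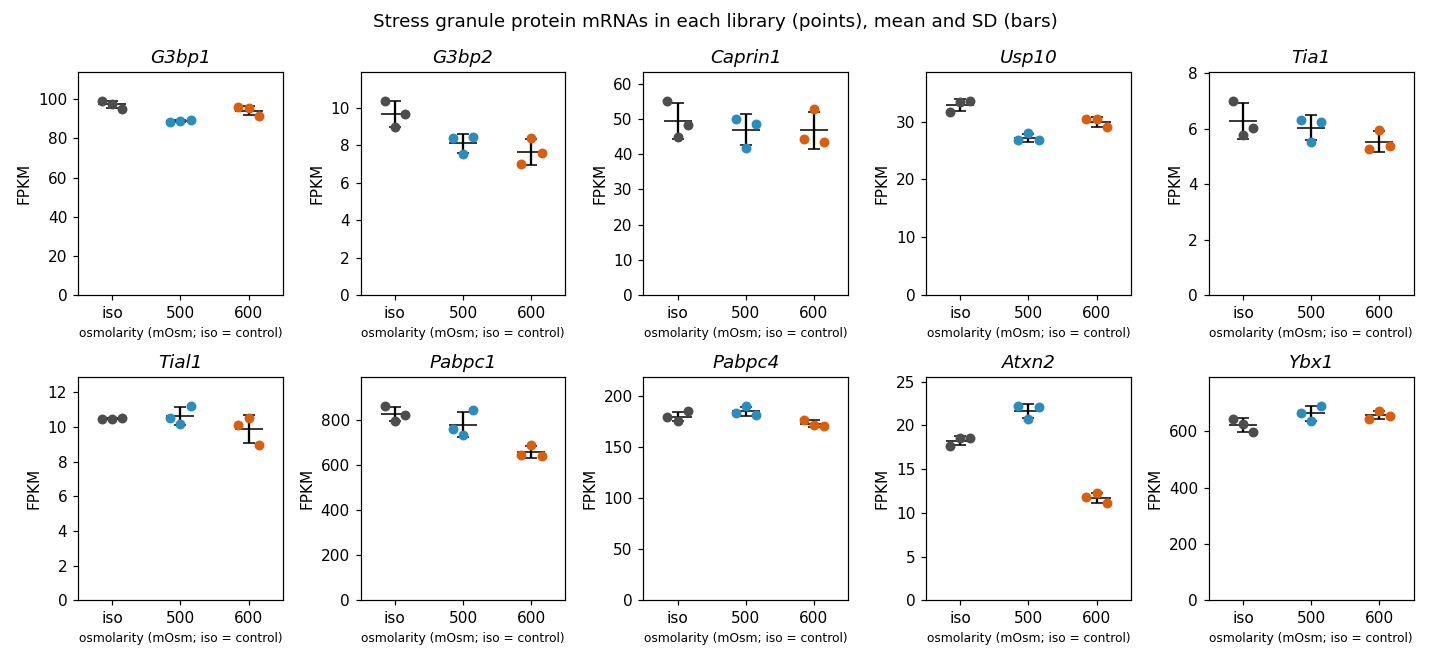
FPKM of each of the 10 mRNAs (vertical axes, each from 0) in the 3 iso-osmolar, 3 500 mOsm and 3 600 mOsm libraries (horizontal axis); points are libraries, bars the mean and SD. Atxn2 is the 1 mRNA whose 500 mOsm libraries all lie above and whose 600 mOsm libraries all lie below the iso-osmolar ones, Usp10 falls at 500 mOsm and lies between at 600 mOsm, and Pabpc1 is lowest at 600 mOsm.

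Atxn2 moved most, and in opposite directions at the 2 intensities. ATXN2, ataxin-2, binds mRNA and poly(A)-binding protein, and its polyglutamine tract is expanded in spinocerebellar ataxia. The gene (ENSMUSG00000042605) lies on the plus strand of chromosome 5, 121711337 to 121816493. Its level was 17.6, 18.5 and 18.6 FPKM in the iso-osmolar libraries, 22.2, 20.7 and 22.1 at 500 mOsm and 11.8, 12.2 and 11.1 at 600 mOsm. The 3 groups did not overlap. At 500 mOsm Atxn2 was higher by 0.25 on the log2 scale (SE 0.0511, adjusted p = 0.00244 by edgeR's quasi-likelihood test), a rise of 18.9%. At 600 mOsm it was lower, with a log2 fold change of -0.62 (SE 0.0522, adjusted p = 2.09e-06 by edgeR), so that it fell by 35.02%. Between the intensities the log2 fold change was -0.87 (SE 0.0521, adjusted p = 1.11e-07 by edgeR). It kept these 3 calls under every alternative setting tried and without any 1 library. The gene region overlaps Sh2b3 on the other strand by 1006 bases, and that gene held 1460 to 2470 reads per library, and the counting is not stated to have used strand. The log2 fold change of Sh2b3 was -0.33 (SE 0.0792) at 500 mOsm and -0.40 (SE 0.0795) at 600 mOsm, and the part of its reads in the Atxn2 values was not tested.

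Pabpc1 fell at the high intensity. The PABPC1 protein coats the poly(A) tail, binds the cap-binding complex through eIF4G and stimulates translation. The gene (ENSMUSG00000022283) lies on the minus strand of chromosome 15, 36595661 to 36608973. The libraries gave 863, 799 and 824 FPKM in iso-osmolar medium, 763, 736 and 846 at 500 mOsm, and 645, 692 and 642 at 600 mOsm. All 600 mOsm libraries lay below all others, whereas the 500 mOsm and iso-osmolar libraries overlapped. The log2 fold change at 600 mOsm was -0.31 (SE 0.0505, adjusted p = 0.000499 by edgeR), so that the mRNA fell by 19.3%, and from 500 to 600 mOsm it was -0.23 (SE 0.0504, adjusted p = 0.0045). Both calls were kept under every alternative. At 500 mOsm it was -0.08 (SE 0.0504, adjusted p = 0.272 by edgeR), with a 95% interval of -0.19 to 0.03. Without the third 500 mOsm library, the highest, that value was -0.13 and passed at an adjusted p of 0.0493.

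Pabpc1 mRNA belongs to the class with a 5′ terminal oligopyrimidine (TOP) tract, a run of pyrimidines right after the cap through which its translation follows growth signals, and through which the protein LARP1 binds it. The first 30 bases of the annotated Pabpc1 transcript are shown with the opening pyrimidine run in capitals, followed by the 30 bases of its leader that are richest in A, with A in capitals. PABPC1 is known to bind such A-rich leader sequence in its own mRNA and to repress its translation there.
Pabpc1, bases 1 to 30: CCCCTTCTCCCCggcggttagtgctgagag
Pabpc1, bases 105 to 134: gAAAAAAcccAAAAAAAAtttAcAAAAAAA
The opening run was 12 bases long. Of 58797 annotated protein-coding transcripts, 124 (0.211%) open with a C and a pyrimidine run at least as long. Among the other members' transcripts no opening run exceeded 2 bases, including that of Pabpc4, although annotated starts can miss the cap site by some bases. The A-rich window held 22 A among 30 bases in a leader of 467 bases.

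Pabpc4, the second cytoplasmic poly(A)-binding protein, gave 179, 176 and 185 FPKM in iso-osmolar medium, 183, 190.1 and 182 at 500 mOsm, and 177, 172 and 171 at 600 mOsm. The libraries at 600 mOsm were all below those at 500 mOsm but overlapped with the iso-osmolar ones. Its log2 fold changes were 0.04 (SE 0.0425) at 500 mOsm, -0.04 (SE 0.0425) at 600 mOsm and -0.08 (SE 0.0425) between the intensities, with adjusted p = 0.511, 0.549 and 0.19 by edgeR. The 95% interval at 600 mOsm ran from -0.13 to 0.06.

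Both scaffold genes fell by small amounts at the low intensity. G3bp1 (ENSMUSG00000018583, chromosome 11, plus strand, 55469685 to 55504838) gave 99.1, 97.8 and 95.3 FPKM in iso-osmolar medium, 88.4, 89.1 and 89.2 at 500 mOsm, and 95.8, 95.3 and 91.5 at 600 mOsm. The 500 mOsm libraries lay below all others, and the 600 mOsm libraries overlapped with the iso-osmolar ones. The log2 fold change at 500 mOsm was -0.13 (SE 0.0391, adjusted p = 0.0265 by edgeR), so that G3bp1 fell by 8.51%. At 600 mOsm it was -0.03 (SE 0.039, adjusted p = 0.617) and between the intensities 0.10 (SE 0.0391, adjusted p = 0.0731).

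The call on G3bp1 at 500 mOsm was lost without iso-osmolar replicate 1 or 2 or 500 mOsm replicate 1 or 3, with log2 fold changes of -0.12 in each case and adjusted p-values of 0.0544 to 0.0852 by edgeR. G3bp1 is counted over a long transcript (6703 bases, of which 5170 are 3′ untranslated). When the trend of log2 level with gene length was removed from each library, the values became -0.09 (adjusted p = 0.283) at 500 mOsm, 0.18 (adjusted p = 0.0359) at 600 mOsm and 0.27 (adjusted p = 0.0041) between the intensities, all by edgeR. The sign at 600 mOsm thus turned with that setting, and no direction is given for it. The same setting turned the uncalled values of Caprin1 and Tial1 at 600 mOsm and of Ybx1 between the intensities, and changed no other called member's side of the threshold.

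G3bp2 (ENSMUSG00000029405, chromosome 5, minus strand, 92052146 to 92083735) was much less abundant and was lower at both intensities. It gave 10.4, 8.97 and 9.66 FPKM in iso-osmolar medium, 8.37, 7.50 and 8.42 at 500 mOsm, and 6.98, 8.37 and 7.59 at 600 mOsm. All stressed libraries lay below all iso-osmolar ones, and the 2 stressed groups overlapped. The log2 fold change was -0.25 (SE 0.0771, adjusted p = 0.0274 by edgeR) at 500 mOsm, where it fell by 15.99%, and -0.32 (SE 0.0775, adjusted p = 0.00701) at 600 mOsm, where it fell by 19.8%. The call at 600 mOsm was kept under every alternative. That at 500 mOsm was lost without iso-osmolar replicate 1 (-0.21) or 3 (-0.26) or 500 mOsm replicate 2 (-0.22). Between the intensities it was -0.07 (SE 0.0777, adjusted p = 0.567), with a 95% interval of -0.24 to 0.10.

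Of the mRNAs of the 2 proteins that bind the scaffold, Usp10 passed the test at 500 mOsm and between the intensities, and Caprin1 in no comparison. Their ratio within libraries, given below, overlapped between groups throughout. USP10, a deubiquitinase, competes with CAPRIN1 for G3BP1 and opposes granule assembly, whereas CAPRIN1 favours it. Usp10 (ENSMUSG00000031826, chromosome 8, plus strand, 119910360 to 119957560) gave 31.7, 33.3 and 33.6 FPKM in iso-osmolar medium, 26.9, 28.002 and 26.74 at 500 mOsm, and 30.5, 30.5 and 29.0 at 600 mOsm. The 3 groups did not overlap, with 600 mOsm between the others. The log2 fold change at 500 mOsm was -0.27 (SE 0.0485, adjusted p = 0.000947 by edgeR), so that Usp10 fell by 17.1%, and this call was kept under every alternative. At 600 mOsm it was -0.11 (SE 0.0484, adjusted p = 0.0873). From 500 to 600 mOsm it was 0.16 (SE 0.0485, adjusted p = 0.0286), a call lost without 500 mOsm replicate 1 (0.15) or 3 (0.14) or 600 mOsm replicate 1 (0.15) or 2 (0.16). That call was lost in 9 of 20 alternatives, among them a fit of the 2 groups alone, the replicate block and both limma settings.

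Caprin1 (ENSMUSG00000027184, chromosome 2, minus strand, 103762941 to 103797649) varied most between libraries of 1 group among the members above 20 FPKM. It gave 55.1, 44.9 and 48.2 FPKM in iso-osmolar medium, 50.1, 41.8 and 48.7 at 500 mOsm, and 44.2, 52.9 and 43.4 at 600 mOsm. The groups overlapped throughout. Its log2 fold changes were -0.07 (SE 0.0848) at 500 mOsm, -0.06 (SE 0.0848) at 600 mOsm and 0.01 (SE 0.0848) between them, with adjusted p = 0.587, 0.632 and 0.925 by edgeR. The 95% intervals, -0.26 to 0.11 and -0.24 to 0.13 against iso-osmolar, leave room for changes as large as those called for G3bp1.

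Tia1 and Tial1, which share RNA recognition motifs and a prion-like tail that lets them aggregate with mRNA, were not called in any comparison. Tia1 (ENSMUSG00000071337, chromosome 6, plus strand, 86404219 to 86433403) gave 6.997, 5.79 and 6.03 FPKM in iso-osmolar medium, 6.32, 5.51 and 6.25 at 500 mOsm, and 5.27, 5.95 and 5.38 at 600 mOsm. Its log2 fold change was -0.05 (SE 0.0842, adjusted p = 0.694 by edgeR) at 500 mOsm and -0.16 (SE 0.0848, adjusted p = 0.164) at 600 mOsm, the latter with a 95% interval of -0.34 to 0.02. Tial1 (ENSMUSG00000030846, chromosome 7, minus strand, 128439777 to 128461717) gave 10.5, 10.5 and 10.5 FPKM in iso-osmolar medium, 10.6, 10.2 and 11.2 at 500 mOsm, and 10.1, 10.5 and 8.98 at 600 mOsm. The iso-osmolar libraries were nearly identical and the stressed ones scattered around them. Its log2 fold change was 0.02 (SE 0.0621, adjusted p = 0.831 by edgeR) at 500 mOsm and -0.07 (SE 0.0624, adjusted p = 0.426) at 600 mOsm. Both mRNAs had overlapping groups in all 3 comparisons.

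Ybx1, which encodes the Y-box protein that packages cytoplasmic mRNA, was the 1 member above its iso-osmolar mean at both intensities. Its gene (ENSMUSG00000028639) lies on the minus strand of chromosome 4, 119277981 to 119294604. It gave 645, 625 and 597 FPKM in iso-osmolar medium, 666, 636 and 689 at 500 mOsm, and 643, 673 and 654 at 600 mOsm, and the highest iso-osmolar library overlapped with both stressed groups. Log2 fold changes of 0.09 (SE 0.0439, adjusted p = 0.136 by edgeR) and 0.10 (SE 0.0439, adjusted p = 0.108) did not pass the test. Between the intensities it was 0.00 (SE 0.0439, adjusted p = 0.98), with a 95% interval of -0.09 to 0.10.

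Counted together, 1 of the 10 mRNAs passed the test as higher and 3 as lower in the 500 mOsm libraries, 4 in all, against 13.2%, 14.8% and 28.0% of all tested genes. For 600 mOsm against iso-osmolar medium the members numbered 0 higher and 3 lower, against 15.1%, 20.0% and, in either direction, 35.1%. At an unadjusted p under 0.05, 1 was higher there, Ybx1, and DESeq2 also called 0 higher. From 500 to 600 mOsm 1 was higher and 2 were lower, against 11.9%, 17.2% and, in either direction, 29.1%. With the gene length trend removed, the split was 1 to 3 for 600 mOsm and 2 to 2 between the intensities, through G3bp1. The median log2 fold changes of the 10 were -0.06, -0.09 and -0.07, beside 0.01, 0.01 and 0.01 over all tested genes. With 10 genes these shares are close to those of the whole table. Without iso-osmolar replicate 1, the count at 500 mOsm was 2, Usp10 and Atxn2. The comparisons of 500 and of 600 mOsm with iso-osmolar medium share their control libraries, so their calls are not independent of each other.

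**Figure D2:**
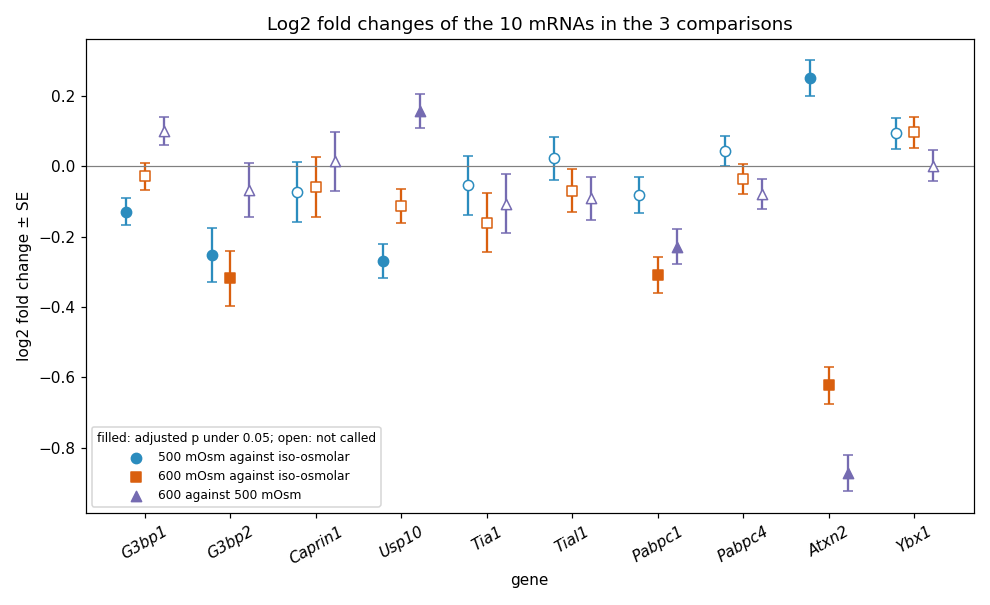
Log2 fold change with its SE (vertical axis) of each of the 10 mRNAs (horizontal axis) in the 3 comparisons, each of 3 libraries against 3; filled symbols have an adjusted p under 0.05 by edgeR and open ones do not. Atxn2 spans the widest range, at 0.25 at 500 mOsm, -0.62 at 600 mOsm and -0.87 between the intensities. The other members' values lie between -0.32 and 0.16.

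Ratios within a library remove its depth and show whether partners changed unequally. The G3bp1 to G3bp2 ratio of FPKM was 9.57, 10.9 and 9.86 in the iso-osmolar libraries, 10.6, 11.9 and 10.6 at 500 mOsm, and 13.7, 11.4 and 12.1 at 600 mOsm. All 600 mOsm libraries exceeded all iso-osmolar ones, with a difference in mean log2 ratio of 0.29. The Pabpc1 to Pabpc4 ratio was 4.82, 4.54 and 4.45 in iso-osmolar medium, 4.16, 3.87 and 4.66 at 500 mOsm, and 3.65, 4.03 and 3.76 at 600 mOsm, where all libraries lay below all iso-osmolar ones and the mean log2 ratio differed by -0.27. Both gave an exact two-sided permutation p of 0.1, the smallest that 3 libraries against 3 allow, so no ratio could pass a threshold of 0.05 (adjusted p = 0.45 over 12 comparisons). The Caprin1 to Usp10 ratio, 1.51 ± 0.205 in iso-osmolar medium, was 1.73 ± 0.202 at 500 mOsm and 1.56 ± 0.154 at 600 mOsm, and the Tia1 to Tial1 ratio was 0.598 ± 0.0614, 0.566 ± 0.0296 and 0.562 ± 0.0395 (SD, n = 3). Their libraries overlapped in all comparisons, and the exact permutation p-values were 0.2 to 1.

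**Figure D3:**
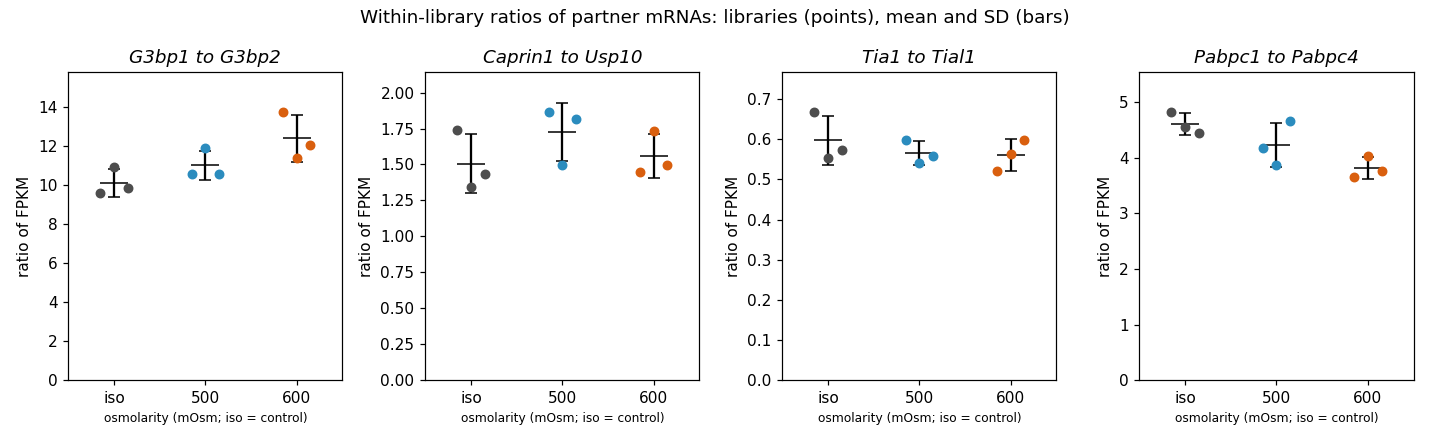
Ratio of FPKM of partner mRNAs within each library (vertical axes from 0) in iso-osmolar, 500 mOsm and 600 mOsm libraries; points are libraries, bars the mean and SD of 3. The mean G3bp1 to G3bp2 ratio is highest and the mean Pabpc1 to Pabpc4 ratio lowest at 600 mOsm. Both are free of overlap only between 600 mOsm and iso-osmolar libraries, and the other ratios overlap in all comparisons.

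The nearest patterns to G3bp1 over the 9 libraries, by Pearson's r of depth-scaled log2 counts among 13081 other tested genes, were those of Prkrip1 (r = 0.986), which encodes an inhibitor of the kinase PKR, Ficd (r = 0.972), which encodes an enzyme that modifies the chaperone BiP, and Homez (r = 0.971), a homeobox gene. Among the members, G3bp1 was most like Usp10 (r = 0.893). These coefficients describe 9 libraries in 3 groups that also share depth and stress, and carry no test. All 3 fell further than G3bp1 at the low intensity: Prkrip1 had a log2 fold change of -0.24 (SE 0.0624) there, Homez had -1.47 (SE 0.185) and Ficd -0.98 (SE 0.156).

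RefSeq promoter windows (GRCm38.p6, from 250 bases before to 50 after each annotated start) were found for 9 of the 10 members, all but Pabpc1. They were searched on both strands for sites of factors that act in osmotic, inflammatory or heat stress. The E-box and the CCAAT box were searched as other promoter motifs. The NFAT5 tonicity element, searched as its consensus, was in 0 of these members' windows and in 4.96% of 32851 windows, and TGGAAA, the core it contains, in 0 and in 21.4%. The NF-κB motif occurred in 8.46% of windows and, among the members, in G3bp2 alone, at 2 overlapping positions. The E-box CACGTG (7.15% of windows) occurred in Atxn2 and in the window of a second, upstream G3bp2 start, the heat shock pair GAANNTTC (7.86%) in none, and CCAAT (37.4%) in G3bp1, G3bp2 and Ybx1. A match in G3bp2 and in Atxn2 is shown in capitals, since these are the members called at both intensities.
G3bp2, NF-κB motif, minus strand, chr5:92083763-92083792: gcgctgtgctGGGGGGTTCCctagcccttt
Atxn2, E-box, plus strand, chr5:121711447-121711472: ccccgctcctCACGTGtccctgatcg
A match of these letters is not evidence of binding, and none was measured here.

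Paralogs outside the set were few. Of 10 further relatives of the members, 5 had enough reads for the test. Atxn2l, the ataxin-2-like gene whose product also enters stress granules, gave 84.2, 96.3 and 89.2 FPKM in iso-osmolar medium, 106.9, 110.8 and 96.5 at 500 mOsm, and 69.1, 63.2 and 69.8 at 600 mOsm. Its 500 mOsm libraries were all above and its 600 mOsm libraries all below the iso-osmolar ones, as for Atxn2, at log2 fold changes of 0.22 (SE 0.0731, adjusted p = 0.0375 by edgeR) and -0.40 (SE 0.0735, adjusted p = 0.00125), and -0.62 (SE 0.0735, adjusted p = 4.45e-05) between the intensities. The call at 500 mOsm was lost without iso-osmolar replicate 1 (0.17) or 3 (0.21), 500 mOsm replicate 1 (0.21) or 2 (0.16), or 600 mOsm replicate 1 (0.22). Pabpn1, the nuclear poly(A)-binding protein gene, was lower at 600 mOsm at -0.40 (SE 0.124, adjusted p = 0.0246), a call lost without iso-osmolar replicate 2 (-0.35) or 3 (-0.35) or 600 mOsm replicate 2 (-0.34) or 3 (-0.42).

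The other known stress granule components, a list of 55 further genes, leaned to lower levels at 600 mOsm. At 500 mOsm 6 were higher and 7 lower, with a median log2 fold change of -0.05. At 600 mOsm 2 were higher and 23 lower, with a median of -0.16, and from 500 to 600 mOsm 4 were higher and 21 lower, with a median of -0.09. With the gene length trend removed, the split was 4 higher and 18 lower at 600 mOsm and 8 higher and 18 lower between the intensities. All 55 were tested, and the percentages of all tested genes and their medians are those given for the members. The members and this list were both chosen with earlier results of these data known, so the counts are a description.

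Within that list, Zfp36, which encodes the mRNA decay factor tristetraprolin, had the largest rise at 500 mOsm, from 4.37, 4.79 and 5.58 FPKM to 16.4, 15.6 and 17.6 (log2 fold change 1.75, SE 0.0988), and fell by 1.98 on the log2 scale (SE 0.1) from there to 600 mOsm. Igf2bp2, with 19, 39 and 25 reads in iso-osmolar and 65, 58 and 51 in 500 mOsm libraries, was higher by 0.95 (SE 0.248, adjusted p = 0.0118), a call lost without iso-osmolar replicate 1 (0.78). Ythdf2, a reader of methylated mRNA, was lowest relative to iso-osmolar medium at 500 mOsm at -0.84 (SE 0.0904), and Igf2bp1 followed at -0.43 (SE 0.0548) and was higher at 600 than at 500 mOsm by 0.29 (SE 0.0548). At 600 mOsm the largest decreases were those of Cpeb4, a binder of polyadenylation elements, at -0.87 (SE 0.117) and of Larp1, the protein that binds the TOP tract, at -0.64 (SE 0.04, adjusted p = 1.7e-07). Larp1 gave 106.4, 103.5 and 105.4 FPKM in iso-osmolar medium, 93.7, 92.5 and 95.9 at 500 mOsm and 67.3, 69.9 and 63.1 at 600 mOsm, 3 groups without overlap. Nufip2, which binds FMRP, fell by 0.96 on the log2 scale (SE 0.137) from 500 to 600 mOsm.

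The 2 genes that were higher at 600 mOsm were Snd1, a nuclease subunit, at 0.17 (SE 0.0424, adjusted p = 0.00835), and Fxr2, a relative of FMRP. Fxr2 rested on 0, 2 and 1 reads in the iso-osmolar, 4, 1 and 6 in the 500 mOsm and 15, 26 and 24 in the 600 mOsm libraries. The ratio of its summed reads, scaled for depth, was 21 at 600 mOsm over iso-osmolar, with a 95% counting interval of 6.87 to 104. From 500 to 600 mOsm the 4 higher genes were Fxr2, Igf2bp1, Ddx1 at 0.17 (SE 0.0543) and Snd1 at 0.12 (SE 0.0423), the last pair named after their values were seen because the count was small. Ddx1 lost its call without 500 mOsm replicate 2 (0.14) or 3 (0.18) or 600 mOsm replicate 2 (0.13) or 3 (0.18), and Snd1 lost it between the intensities without any 1 library other than iso-osmolar replicate 1 or 600 mOsm replicate 2, at 0.10 to 0.15. Of 20 alternatives, 11 lost the Ddx1 call and 16 the Snd1 call, among them library size alone, the replicate block and both limma settings.

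Processing bodies are the companion granules where mRNA is deadenylated, decapped and silenced, and they dock with stress granules. Of 28 genes listed, 27 were tested. At 500 mOsm 0 were higher and 6 lower, against 13.2% and 14.8% of all tested genes, with 3 lower without 500 mOsm replicate 2. At an unadjusted edgeR p under 0.05, 0 were higher and 8 lower, and DESeq2 called 0 higher and 6 lower. The largest decreases were in the Argonaute gene Ago3 at -0.59 (SE 0.181, adjusted p = 0.0265) and the decapping activator Edc3 at -0.40 (SE 0.0643), of which Ago3 lost its call without iso-osmolar replicate 3 (-0.36) or 500 mOsm replicate 2 (-0.58) or 3 (-0.47). At 600 mOsm 4 were higher and 13 lower, against 15.1% and 20.0% of all tested genes, with a median of -0.17. Without 600 mOsm replicate 1 the count was 10. The GW182 gene Tnrc6c, whose product links Argonaute to deadenylation, was lowest at -0.998 (SE 0.0649, adjusted p = 2.28e-07), with 5.78, 5.92 and 6.36 FPKM in iso-osmolar medium and 2.97, 3.15 and 2.81 at 600 mOsm, and Ago3 followed at -0.77 (SE 0.184).

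The higher processing body genes at 600 mOsm were 3 of the small Sm-like ring subunits, Lsm7 at 0.31 (SE 0.0553), Lsm4 at 0.23 (SE 0.0692) and Lsm2 at 0.22, and the scaffold gene Edc4 at 0.16. Lsm2 and Edc4 were named after their values were seen. These calls were sensitive to the settings. With the gene length trend removed, Lsm7 (0.11), Lsm4 (0.10) and Lsm2 (0.16) were no longer called, and Lsm4 also lost its call without iso-osmolar replicate 1 (0.19) or 3 (0.22) or 600 mOsm replicate 1 (0.20) or 3 (0.21). Lsm2 lost it without iso-osmolar replicate 2 (0.19) or 3 (0.23) or 600 mOsm replicate 1 (0.21) or 2 (0.20), and Edc4 without iso-osmolar replicate 3 (0.15) or 600 mOsm replicate 1 (0.13). From 500 to 600 mOsm 6 were higher and 8 lower, where 11.9% and 17.2% of all tested genes were called, and 5 and 3 with the gene length trend removed, and 9 were called without 600 mOsm replicate 3. Pan2, a deadenylase subunit, was higher by 0.45 (SE 0.0905) and Lsm2 by 0.34 (SE 0.0711), and Tnrc6c fell by 0.73 (SE 0.065) and Eif4enif1, the eIF4E transporter gene, by 0.50 (SE 0.0532) on the log2 scale.

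The genes around the trigger were 20, all tested. They were those of the eIF2α kinases, eIF2, eIF2B and the phosphatase subunits, with Nck1, Atf4 and Prkra, the gene of PACT. At 500 mOsm 2 were higher and 4 lower, at 600 mOsm 3 higher and 3 lower, and between the intensities 3 higher and 3 lower, with medians of -0.02, 0.03 and 0.06. Over all tested genes 28.0%, 35.1% and 29.1% were called in either direction, so that 6 of 20 in each comparison was near the background. Ppp1r15a, whose product GADD34 directs phosphatase to eIF2α and so ends the signal, gave 7.38, 8.44 and 8.05 FPKM in iso-osmolar medium, 65.5, 68.6 and 63.5 at 500 mOsm and 9.95, 9.43 and 9.99 at 600 mOsm. It was higher by 3.05 (SE 0.0688) at 500 mOsm and by 0.32 (SE 0.0701) at 600 mOsm, and fell by 2.73 (SE 0.0673) between them on the log2 scale. Its constitutive counterpart Ppp1r15b was lower at both, at -0.53 (SE 0.045) and -0.47 (SE 0.045).

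Among the others, Atf4, the transcription factor translated when eIF2α is phosphorylated, was higher by 0.24 (SE 0.0454) at 500 mOsm. Lower there were also Nck1 at -0.42 (SE 0.105), Eif2ak3, the gene of the kinase PERK, at -0.41, and Eif2b3 at -0.17, the last pair named after their values were seen. Eif2b3 lost its call without any 1 of the iso-osmolar libraries or 500 mOsm replicate 1 or 2, at -0.15 to -0.19. At 600 mOsm the catalytic phosphatase genes split, Ppp1ca at 0.18 (SE 0.0556, adjusted p = 0.0261) and Ppp1cc at -0.27 (SE 0.0424). Ppp1ca lost its call without iso-osmolar replicate 1 (0.14) or 3 (0.16) or 600 mOsm replicate 1 (0.18) or 3 (0.14), and the list count at 600 mOsm was 3 without iso-osmolar replicate 1. The remaining called genes at 600 mOsm, Eif2b5 at 0.16 and Eif2ak3 at -0.27, were named after their values were seen. Eif2b5 lost its call without iso-osmolar replicate 1 (0.15) or 3 (0.16) or 600 mOsm replicate 1 (0.14), and Eif2ak3 without iso-osmolar replicate 1 (-0.25) or 600 mOsm replicate 3 (-0.23). From 500 to 600 mOsm Nck1 was higher by 0.34, Eif2b1 by 0.21 and Eif2b5 by 0.20, and Ppp1cc fell by 0.32 (SE 0.0423) and Atf4 by 0.20 on the log2 scale, Eif2b5 and Atf4 again named after their values were seen. Nck1 lost this call with DESeq2 (0.35, adjusted p = 0.0519 by DESeq2). It also lost it without 500 mOsm replicate 2 (0.34) or 3 (0.27) or 600 mOsm replicate 1 (0.33) or 2 (0.31). Eif2b1 lost its call without 500 mOsm replicate 1 (0.19) or 2 (0.17).

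Genes for the clearance of stress granules, chaperones, the segregase VCP and its adaptors, and kinases that dissolve them, numbered 19, all tested. At 500 mOsm 6 were higher and 0 lower by edgeR. At an unadjusted p under 0.05, 6 were higher and 1 lower, and DESeq2 called 6 higher and 0 lower. At 600 mOsm 4 were higher and 3 lower, and between the intensities 1 was higher and 6 lower, with medians of 0.07, 0.07 and -0.05. The shares of all tested genes called higher and lower were 13.2% and 14.8%, then 15.1% and 20.0%, then 11.9% and 17.2%. Hspa1b, an inducible Hsp70 gene, gave 8.07, 9.14 and 7.78 FPKM in iso-osmolar medium, 243, 226 and 209.5 at 500 mOsm and 16.9, 18.6 and 16.1 at 600 mOsm, 3 groups without overlap. Its log2 fold changes were 4.77 (SE 0.0847) at 500 mOsm, 1.06 (SE 0.0806) at 600 mOsm and -3.70 (SE 0.0792) between them. Hspa1a, its near-identical neighbour, had the same directions at 4.83 (SE 0.368), 3.33 (SE 0.428) and -1.51 (SE 0.246), a value near that of Hspa1b at 500 mOsm and unlike it in the other comparisons. It started from 5 reads in each iso-osmolar library, and reads of the pair may have been split or dropped by the counting.

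At 600 mOsm the co-chaperone genes Bag3 at -0.38 (SE 0.0516) and Dnajb6 at -0.36 (SE 0.0549) were lower, as was Hsph1 at -0.31, while Trim21 at 0.69 and Hspb8 at 0.19 were higher. Bag3 had been higher at 500 mOsm, by 0.48 (SE 0.0509), and fell by 0.86 (SE 0.0514) on the log2 scale between the intensities. Also higher at 500 mOsm were Dyrk3, a kinase gene of the list, at 1.37 (SE 0.11), Hspb1 at 0.29 and Hspb8 at 0.22. Dyrk3 was not called at 600 mOsm (-0.03, SE 0.117) and had a log2 fold change of -1.40 (SE 0.11) between the intensities. Hsph1, Trim21, Hspb8, Dyrk3 and Hspb1 were named after their values were seen. Trim21 lost its call with DESeq2 (0.70, adjusted p = 0.0842 by DESeq2). It also lost it without iso-osmolar replicate 1 (0.64) or 3 (0.59) or 600 mOsm replicate 2 (0.56). From 500 to 600 mOsm the methyltransferase gene Prmt1 was the 1 higher, at 0.20 (SE 0.0514, adjusted p = 0.0117), a call lost without 500 mOsm replicate 1 (0.16).

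**Figure D4:**
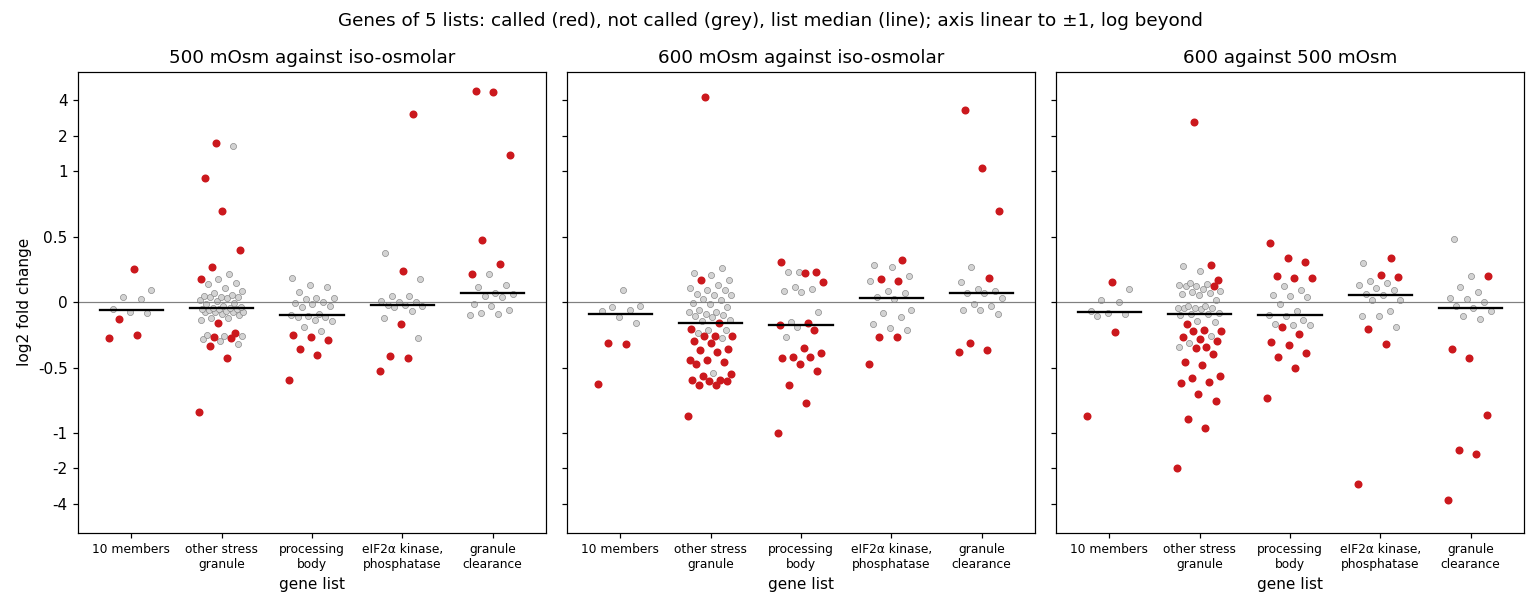
Log2 fold change (vertical axis, linear to 1 and -1 and logarithmic beyond) of each tested gene of the 10 members and 4 lists in the 3 comparisons; red points have an adjusted p under 0.05 by edgeR, grey points do not, and lines are list medians. The other stress granule and processing body genes lie mostly below 0 at 600 mOsm. There 23 of 55 and 13 of 27 were called lower, beside 20.0% of all tested genes. These counts changed with the gene length trend removed. The text gives the split for the other stress granule genes and only the total called for the processing body genes. The largest rises at 500 mOsm are those of Hspa1a, Hspa1b and Ppp1r15a.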

How the data were processed

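Poly(A)-selected RNA of 9 libraries, 3 for each of 3 groups, was sequenced by the authors as paired reads of 150 bases. The submitters' processing notes name CASAVA 1.8, STAR and build mm10. The counting tool and its use of strand are not given in the sources used here. The authors deposited 1 table with counts per gene and with FPKM, in which each count was divided by a gene length and by the library's total. Columns of the authors' own comparisons were not used.

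The deposited counts were tested with edgeR 4.0.16 in R 4.3.3 (TMM scaling, filterByExpr, quasi-likelihood fit over all 9 libraries), with Benjamini-Hochberg adjustment over 13082 genes and a threshold of 0.05. The common biological coefficient of variation was 0.0756. Libraries held 21716042 to 26740832 counts. FPKM was used for levels and ratios, which were tested by exact permutation. Alternatives used DESeq2 1.42.0, limma 3.58.1 on log2(FPKM + 1) and log2(FPKM + 0.1), other scalings and filters, removal of the trend with gene length, and each library left out. No 2 libraries matched within sampling noise. The procedure was tested on simulated data. Counting intervals cover counting error only.

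The members and lists were chosen with earlier results of these data known. All 10 members are given, with the 2 called genes of largest log2 fold change per other list, comparison and direction, and the 3 genes nearest G3bp1. Where a direction held few called genes the remainder were also named. Transcripts came from GENCODE release M21, promoters from RefSeq (GRCm38.p6), and copies were searched with blastn 2.17.0.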

Additional observations from a re-analysis of the deposited data

How the results depend on the processing

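All 3 Atxn2 calls, Usp10 at 500 mOsm, Pabpc1 at 600 mOsm and between the intensities, and G3bp2 at 600 mOsm kept their direction and their side of the threshold under all 20 alternatives, with Atxn2 at 0.22 to 0.28, -0.65 to -0.53 and -0.89 to -0.81. The members called at 500 mOsm numbered 4, against 2 with the replicate block, limma on log2(FPKM + 0.1) or an adjusted p under 0.01, and 2 to 4 without 1 library. Other stress granule genes at 500 mOsm numbered 8 at an adjusted p under 0.01, against 13. Processing body genes at 500 mOsm numbered 3 with the block, either limma setting or the stricter p, and 3 to 6 without 1 library. At 600 mOsm they numbered 10 with the length trend removed or the stricter p and 10 to 17 without 1 library, and between the intensities 9 with limma on log2(FPKM + 0.1), 8 with the length trend removed, 8 with the stricter p and 9 to 13 without 1 library. The eIF2α genes at 600 mOsm numbered 3 with the stricter p and 3 to 9 without 1 library. Paralogs at 500 mOsm numbered 0 with the block, either limma setting or the stricter p and 0 to 1 without 1 library, and at 600 mOsm 1 with the block or the stricter p and 1 to 2 without 1 library. Usp10 at 600 mOsm passed with library size alone, at -0.13. Causes other than fewer libraries or a stricter limit were not tested.

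Signs turned for values that did not pass the test. With the length trend removed, G3bp1 at 600 mOsm was 0.18, Caprin1 0.12 and Tial1 0.0257, and Ybx1 between the intensities was -0.0626. Caprin1 between the intensities was -0.00203 with library size alone, -0.00284 and -0.00292 in the limma settings, and -0.0641 to 0.0639 without 1 library. Ybx1 there was -0.0152 with library size alone, -0.0103 with at least 10 counts in every library, -0.01427 and -0.01428 in the limma settings, and -0.0119 to 0.0222 without 1 library. Without 1 library, Caprin1 lay between -0.1318 and 0.00444 at 500 mOsm, and at 600 mOsm between -0.1395 and 0.0213. Tia1 then ranged from -0.103 to 0.0226 at 500 mOsm, and Tial1 from -0.00876 to 0.0372. The log2 Caprin1 to Usp10 ratio at 600 mOsm then ranged from -0.0246 to 0.162, and the Tia1 to Tial1 ratio from -0.128 to 0.0077 at 500 mOsm and from -0.0616 to 0.04 between the intensities.

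The labels number the libraries 1 to 3 in each group. Same-numbered libraries did not deviate together on average (mean r of deviations -0.23, from -0.65 to 0.57, over 9110 genes, against 0.12 for other pairs), so the numbers were not taken as pairs. Other pairs ranged from -0.322 to 0.574, the latter for iso-osmolar replicate 3 and 500 mOsm replicate 1. Whether libraries share a batch under another matching was not tested, and the replicate block used the numbers. With the replicate block, 3111, 3798 and 3089 genes were called in the 3 comparisons, against 3659, 4594 and 3810. Depth limited Fxr2 and Hspa1a, at 5 reads or fewer per iso-osmolar library.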
